A study of Mus musculus with 39 samples.

Results

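Stretches of open chromatin between genes were examined in sfGFP+ nuclei of mouse neocortex, using only those that ATAC-seq detected in every library of the study. The peaks of the 6 lists were merged where they overlapped by at least 1 bp. An autosomal merged region was kept where all 6 lists had a peak, where it was under 2000 bp wide, and where it lay more than 3000 bp from every curated RefSeq start site and outside every curated transcript of mm10. These rules kept 27707 of the 170178 merged regions, against 26458 intronic, 4952 exonic and 14751 promoter regions (within 3000 bp of a start site) that were also under 2000 bp wide and held a peak in all 6 lists. The regions were thus chosen by the measured presence of a peak in each list, which is therefore only described, as is the height that a peak needed to be listed.

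The nuclei came from mice aged 13 to 16 weeks that carried 2 transgenes, Arc-CreERT2, in which the Arc promoter drives a tamoxifen-dependent Cre, and R26 CAG-Sun1-sfGFP-Myc, which after recombination places a green fluorescent protein on the nuclear membrane. All mice received tamoxifen followed by a social interaction test, so both groups share the transgenes, the drug and the stimulus, and no group without them was analysed here. In FANS (fluorescence-activated nuclei sorting) tagged nuclei were sorted by flow cytometry, and in INTACT they were captured on antibody-coated magnetic beads. Each technique gave 3 ATAC-seq libraries, which were technical replicates of 1 biological source. The labels give 50000 nuclei per library, whereas the methods also give a smaller number in 1 place, so the input is uncertain. The spread between libraries therefore holds no variation between animals, and p-values refer to these libraries.

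Transposase enters DNA where nucleosomes are displaced, and away from start sites such openings are often enhancers, insulators or other regulatory elements bound by transcription factors. In neurons, activity opens and closes part of them through AP-1 factors of the Fos and Jun families, while basic helix-loop-helix factors such as the Neurod proteins bind E-boxes in many of them, and CTCF marks insulators and loop anchors. Height here means the fold enrichment of reads at the summit of a peak over the local background, as the peak caller gave it.

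The following windows of 200 bp around the summit are shown because the results return to them: the 2 regions nearest to the start of Arc, 1 region each near Fos and Npas4, 2 regions far higher in INTACT, 2 regions far lower in INTACT, and 2 of the highest regions of all. Bases come from the RefSeq assembly GRCm38.p6, whose coordinates are those of mm10, on the plus strand, and capitals mark a match to any of the 17 motifs described below.
Arc upstream, chr15:74677482-74677681: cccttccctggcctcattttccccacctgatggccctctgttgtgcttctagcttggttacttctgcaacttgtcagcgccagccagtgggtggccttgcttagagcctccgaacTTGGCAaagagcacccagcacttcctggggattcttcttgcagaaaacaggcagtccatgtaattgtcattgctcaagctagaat
Arc downstream, chr15:74667725-74667924: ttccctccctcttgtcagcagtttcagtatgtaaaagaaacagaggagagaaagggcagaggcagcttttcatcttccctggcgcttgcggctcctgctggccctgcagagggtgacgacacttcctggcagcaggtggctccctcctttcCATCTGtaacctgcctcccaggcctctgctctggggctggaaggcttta
Fos upstream, chr12:85467970-85468169: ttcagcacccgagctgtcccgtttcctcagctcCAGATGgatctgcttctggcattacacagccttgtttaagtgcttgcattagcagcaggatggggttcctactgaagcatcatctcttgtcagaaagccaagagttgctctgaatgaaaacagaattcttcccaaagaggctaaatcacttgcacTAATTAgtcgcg
Npas4 upstream, chr19:5001907-5002106: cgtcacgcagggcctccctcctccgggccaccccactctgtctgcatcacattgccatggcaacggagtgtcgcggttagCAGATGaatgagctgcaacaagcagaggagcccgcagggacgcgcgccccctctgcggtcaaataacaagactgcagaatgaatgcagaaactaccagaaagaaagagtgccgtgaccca
Il12rb2 upstream, chr6:67407197-67407396: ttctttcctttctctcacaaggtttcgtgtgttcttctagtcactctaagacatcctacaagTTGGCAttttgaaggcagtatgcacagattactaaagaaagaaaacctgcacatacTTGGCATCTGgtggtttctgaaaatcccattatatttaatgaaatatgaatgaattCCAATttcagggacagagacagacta
Pcdh18 downstream, chr3:49693609-49693808: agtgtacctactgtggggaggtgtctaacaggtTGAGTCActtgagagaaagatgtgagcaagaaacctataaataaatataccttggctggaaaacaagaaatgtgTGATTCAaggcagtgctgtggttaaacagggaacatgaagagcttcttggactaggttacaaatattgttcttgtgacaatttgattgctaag
Prss27 upstream, chr17:24029586-24029785: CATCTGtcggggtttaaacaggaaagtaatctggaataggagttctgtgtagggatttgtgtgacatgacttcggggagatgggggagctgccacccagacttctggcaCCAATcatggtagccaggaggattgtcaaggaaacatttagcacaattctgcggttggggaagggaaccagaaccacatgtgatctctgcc
Rbfox3 upstream, chr11:118921888-118922087: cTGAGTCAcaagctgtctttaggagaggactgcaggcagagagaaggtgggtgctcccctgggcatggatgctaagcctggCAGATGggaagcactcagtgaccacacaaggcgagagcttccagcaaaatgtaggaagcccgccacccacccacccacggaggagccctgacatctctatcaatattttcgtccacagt
Nxph1 downstream, chr6:9890011-9890210: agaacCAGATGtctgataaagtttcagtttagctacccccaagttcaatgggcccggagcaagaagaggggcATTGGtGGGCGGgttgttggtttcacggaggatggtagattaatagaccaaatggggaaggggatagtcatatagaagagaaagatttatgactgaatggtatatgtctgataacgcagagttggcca
1700019M22Rik upstream, chr12:97061521-97061720: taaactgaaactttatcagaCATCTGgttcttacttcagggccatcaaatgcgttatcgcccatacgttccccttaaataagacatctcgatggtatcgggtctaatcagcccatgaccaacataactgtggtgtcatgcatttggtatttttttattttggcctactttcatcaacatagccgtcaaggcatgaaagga
Upstream and downstream are relative to the gene with the nearest start site, which need not be the gene that a region acts on.

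First, the position of the regions was described. They lay at a median of 63239 bp from the nearest start site, with quartiles of 23186 and 163730 bp. Of the regions, 9.99% lay within 10 kb of a start, 52.5% between 10 and 100 kb and 37.6% farther away, and 319 lay over 1 Mb from any start. The nearest start belonged to a gene that the region lay upstream of in 58.1% of cases. There were 20.6 regions per Mb of the 1343 Mb of sequence that met the distance rule, and by chromosome the density ran from 11.2 per Mb on chromosome 7 to 25.4 per Mb on chromosome 18. Neighbouring regions were a median of 26467 bp apart, and 28.0% of the gaps between them were under 10 kb. The regions were a median of 687 bp wide, with quartiles of 548 and 858 bp. Of the intergenic merged regions that met the rules on chromosome, width and position, 43.4% had a peak in all 6 lists, 9.20% in 5 lists and 17.6% in 1 list.

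The limits of the rule cut through a continuum. The region nearest to the limit of distance on the inside lay 3003 bp from the start of Snx30 and had a median height of 4.01 over the 6 libraries, and the nearest on the outside lay 2998 bp from that of Irgc1 and had 7.31. The widest region kept spanned 1998 bp with a height of 8.25, and the narrowest one left out for its width spanned 2000 bp with a height of 10.1.

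The heights were then compared with those of the other classes within each library. In every library the intergenic regions stood below the promoter regions and above the intronic ones. Their median height was 8.87, 9.17 and 9.41 in FANS replicates 1 to 3 and 8.87, 8.06 and 9.65 in INTACT replicates 1 to 3, so that the techniques overlapped (exact permutation p = 0.7). Intronic regions had medians of 8.15, 8.44 and 8.61 in FANS and 7.41, 6.72 and 8.13 in INTACT. The intergenic median exceeded the intronic one by 0.19 ± 0.07 on the log2 scale (SD, n = 6), in 6 of 6 libraries, and the exact two-sided sign-flip permutation p of 0.031 is the smallest that 6 libraries can give. Ranked among all peaks of a library, the median intergenic region stood between the 64.3th percentile (INTACT replicate 2) and the 70.6th (INTACT replicate 3). Depth cannot be read from the lists, which held 99514 to 130088 peaks per library, and INTACT replicate 2 had the fewest.

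**Figure D1:**
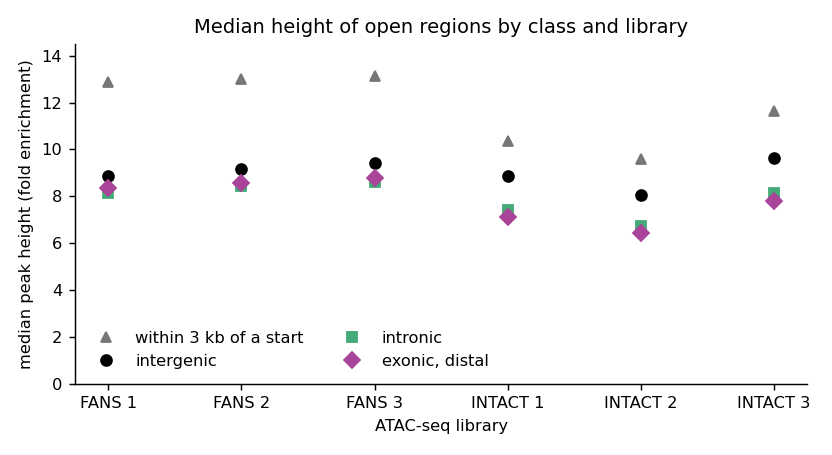
Median height (fold enrichment at the summit, vertical axis) of open regions in each of the 6 ATAC-seq libraries (horizontal axis), by class: intergenic (circles), intronic (squares), exonic away from starts (diamonds) and within 3 kb of a start (triangles). Intergenic medians lay between 8.06 and 9.65 in both techniques, whereas promoter medians were 12.9 to 13.1 in FANS and 9.59 to 11.6 in INTACT.

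The distance between classes differed between the techniques. Intergenic regions were lower than promoter regions by 0.54, 0.50 and 0.48 (log2) in FANS and by 0.22, 0.25 and 0.27 in INTACT, and the 2 sets of libraries did not overlap. The gap thus changed by 0.26 from FANS to INTACT, and the exact two-sided permutation test gave its minimum for groups of 3, p = 0.1. Over the intronic regions the lead of the intergenic ones was 0.12, 0.12 and 0.13 in FANS and 0.26, 0.26 and 0.25 in INTACT, again without overlap (difference 0.13, exact p = 0.1). These gaps are within a library and use no normalisation. Peaks of the intergenic regions were also wider in INTACT, with medians of 556, 546 and 545 bp against 497, 519 and 524 bp in FANS (exact permutation p = 0.1).

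Next, single regions were compared between techniques with limma on log2 heights, quantile-normalised over all 74590 autosomal regions with a peak in every list. At a Benjamini-Hochberg adjusted p under 0.05, 5365 intergenic regions (19.4%) were higher in INTACT, against 10.9% of all regions tested, and 2489 (8.98%) were lower, against 10.1%. Of the intronic regions 7.73% were higher and 9.21% lower, and of the promoter regions 3.17% and 13.0%. Without any test, the 3 INTACT libraries all lay above the 3 FANS libraries in 27.1% of the intergenic regions, against 18.1% of all regions, and all below in 14.8%, against 19.0%. The normalised median of the intergenic regions was 3.11, 3.11 and 3.12 (log2) in FANS and 3.23, 3.23 and 3.22 in INTACT, a difference of 0.11 with an exact permutation p of 0.1, and the median of the differences of single regions was 0.06. The difference of 0.11 became 0.061 when the trend of height with window GC was removed within each library and 0.044 when that with the GC of the surrounding 100 kb was removed. Among the called regions the median size of the difference was 1.56-fold for those higher and 1.54-fold for those lower. Normalised over the intergenic regions alone, a scaling that sets their typical difference to 0 by construction, 4153 were higher and 3585 lower.

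The regions higher in INTACT differed from those lower in INTACT in base composition and position. Their windows had a median GC of 41.5% against 51.5%, the surrounding 100 kb had 39.1% against 46.1%, and they lay a median of 139696 bp from a start against 33231 bp. By the GC of the surrounding 100 kb, 53.2% of the 2882 regions between 36 and 38% were higher in INTACT and 0.798% lower, whereas of the 1897 regions at 48% or above 0.896% were higher and 35.1% lower. By distance, 8.06% of the regions within 10 kb of a start were higher and 14.1% lower, and of those over 300 kb away 40.6% were higher and 2.64% lower. Window GC and regional GC each moved with the difference when the other was held in a range. Among windows of 40 to 50% GC, the median difference was 0.24 where the surrounding 100 kb had under 40% GC and -0.11 where it had 45% or more. Among regions whose surrounding 100 kb had under 40% GC, it was 0.47 for windows under 40% GC and 0.11 for those of 50% or more.

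This could also be seen within libraries, without normalisation. In FANS, intergenic regions with window GC under 40% were lower than those with 55% or more by 0.62, 0.60 and 0.51 (log2), whereas in INTACT they were higher by 0.20, 0.18 and 0.03 (exact permutation p = 0.1). Regions over 300 kb from a start differed from those within 10 kb by -0.08, -0.06 and -0.02 in FANS and by 0.42, 0.39 and 0.40 in INTACT (exact p = 0.1). The gap was also higher in INTACT in both other classes for which it was computed. For intronic regions it was -0.43, -0.45 and -0.40 in FANS and 0.06, 0.06 and -0.08 in INTACT, and for promoter regions -1.197, -1.05 and -1.04 in FANS and -0.56, -0.56 and -0.72 in INTACT (exact permutation p = 0.1 for each). When the median height at each percent of GC over 100 kb was subtracted within each library, an alternative chosen after seeing the data, 3468 regions were higher in INTACT and 3322 lower, and 47.7% of the 5365 regions higher before remained so. With the trend of window GC subtracted instead, also chosen after seeing the data, 3945 were higher and 2552 lower, and 59.5% of those higher before remained so. What in the handling of the samples set the dependence on GC was not tested.

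**Figure D2:**
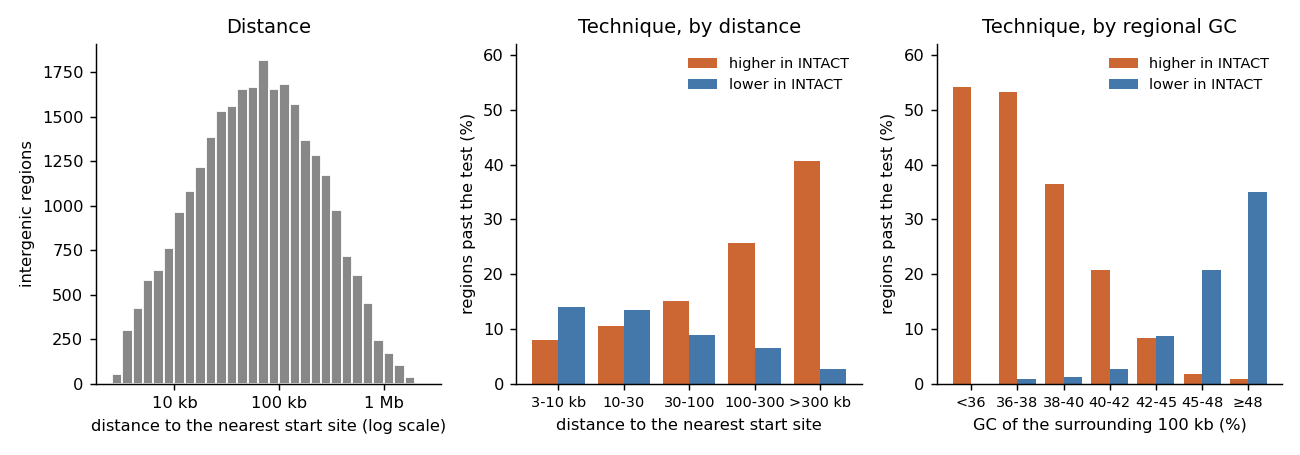
Left, number of intergenic regions (vertical axis) by distance to the nearest start site on a log scale. Middle and right, percent of intergenic regions past the limma test (adjusted p under 0.05) that were higher (orange) or lower (blue) in INTACT, by distance and by GC of the surrounding 100 kb: the share higher was 8.06% within 10 kb and 40.6% beyond 300 kb of a start, and the share lower was 35.1% at a GC of 48% or more.

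The shares also varied by chromosome. On chromosome 3, 24.8% of the 2286 regions were higher in INTACT and 1.66% lower. Chromosome 7 had the smallest share higher, 5.80% of 862 regions, with 24.4% lower, and the surrounding 100 kb of its regions had a median GC of 44.2% against 41.4% on chromosome 3. Chromosome 16 had the lowest such median, 40.7%, and 24.5% of its 1012 regions were higher and 10.5% lower. Over all intergenic regions 19.4% were higher and 8.98% lower, and over all regions tested 10.9% and 10.1%. The part of GC in the shares by chromosome was not tested.

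The 5 regions with the largest rise in INTACT lay near Il12rb2, Pcmtd1, Mir6411, Pcdh18 and 2810404M03Rik, with window GC of 29 to 39.5%. They were chosen as called with no overlap between techniques, so the separation and small p-values given below follow from the choice. At chr6:67406984-67407661, 30796 bp upstream of Il12rb2, a subunit of the interleukin-12 receptor, the height was 4.06, 3.37 and 3.403 in FANS and 11.2, 9.13 and 9.08 in INTACT. All INTACT libraries thus stood above all FANS libraries, with a normalised log2 difference of 1.54 (95% CI 1.195 to 1.892, limma adjusted p = 7.14e-05). At chr3:49693322-49693938, 63378 bp downstream of the start of Pcdh18, a protocadherin of cell adhesion, it was 4.29, 6.18 and 8.81 in FANS and 18.2, 13.4 and 14.8 in INTACT. This was a difference of 1.47 (95% CI 1.05 to 1.88, limma adjusted p = 0.000232), and the window printed above holds 2 AP-1 matches. For the other 3 the differences were 1.53, 1.48 and 1.44. All 5 stayed past the threshold with either GC trend removed, but with that of window GC the difference near Pcmtd1 fell from 1.53 to 0.88 and that near Mir6411 from 1.48 to 0.83.

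The 5 regions with the largest fall in INTACT lay near Prss27, Mir7048, Rbfox3, Micos10 and Ccnq, with window GC of 50 to 59.5%, within 8164 to 29527 bp of a start. At chr17:24029274-24030079, 8164 bp upstream of the protease gene Prss27, the height was 12.0, 11.3 and 11.2 in FANS and 3.56, 3.49 and 2.53 in INTACT (log2 difference -1.73, 95% CI -2.10 to -1.36, limma adjusted p = 5.63e-05). At chr11:118921794-118922388, 10197 bp upstream of Rbfox3, which encodes the neuronal nuclear protein NeuN, it was 18.1, 17.6 and 19.5 in FANS and 3.82, 5.104 and 6.97 in INTACT. That region fell by 1.704 (95% CI -2.07 to -1.34, limma adjusted p = 5.63e-05), and no INTACT library reached the FANS libraries. The Rbfox3 window holds an AP-1 match and an E-box match, and so does that near Micos10, a gene of the mitochondrial cristae, where the height was 15.3, 15.5 and 17.2 in FANS and 4.58, 4.03 and 4.86 in INTACT. The other differences were -1.72 and -1.63. All 10 of these regions kept their call without any one library. They were chosen as called, with the largest differences and no overlap between techniques, so this result was largely set by that choice.

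The regions of greatest height were described next. The highest by median rank lay at chr6:47748246-47748896, 32728 bp upstream of Rny3, a gene of small cytoplasmic Y RNAs, with 42.3, 41.7 and 42.1 in FANS and 37.1, 34.8 and 39.8 in INTACT. All INTACT heights were lower, but the normalised difference was -0.0096 (limma adjusted p = 0.759). Quantile normalisation gives equal ranks equal values, here 39.6 in every library but INTACT replicate 2 (38.8). A difference near 0 thus followed from the rank of this region, and the test cannot show whether its height differed. Of the window near Rny3 64% was repeat-masked, and the window aligned at 17 places in the main chromosomes (at least 90% identity over at least 150 bp). The second, near Nxph1, and the third, near 1700019M22Rik, aligned at 3 and 5 places, and both windows, printed above, also aligned to the mitochondrial genome, over 193 and 200 of their 200 bases. They share 31 identical bases on opposite strands. The fifth, near Rpia, aligned at 5 places, and the fourth, near Cr2, aligned only to itself. Of the 5 regions 2 passed the test, that near 1700019M22Rik with 32.2, 32.1 and 31.4 in FANS and 31.0, 28.8 and 31.6 in INTACT (normalised log2 difference 0.13, limma adjusted p = 0.00378), and that near Cr2 with 33.0, 34.0 and 33.0 in FANS and 25.6, 24.5 and 29.3 in INTACT (-0.15, adjusted p = 0.0132). The direction near 1700019M22Rik depended on the scaling, since its mean unnormalised height was lower in INTACT (30.5 against 31.9), it missed the threshold when libraries were centred on their median (0.095, limma adjusted p = 0.125), and it was -0.0715 with the trend of window GC removed. With that of GC over 100 kb removed it was -0.30 and passed in the opposite direction (adjusted p = 6.6e-05). The call near Cr2 was lost without FANS replicate 2 (limma adjusted p = 0.0680) or INTACT replicate 1 (0.0511), and its difference was 0.0156 with the trend of window GC removed. In all, 5 intergenic windows aligned to the mitochondrial genome over at least 50 bases, and their median ranks were at the 77.04th, 96.3th, 99.98th, 99.994th and 99.9992th percentiles. One of them, near Nfasc and singled out after its values were seen, ranged in height from 5.61 to 18.1 between libraries. Of the 291 regions with a median rank above the 99th percentile, 5.84% had another near-identical copy (at least 95% identity over at least 90% of the window; 95% Wilson CI 3.68 to 9.16%), against 1.10% of all the regions. The share with such a copy was 1.86% among regions higher in INTACT and 0.723% among those lower, and its part in either difference was not tested.

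Next came the 3 regions lying farthest from any start site. The farthest, at chr2:99430391-99430987, was 1962734 bp from the start of Lrrc4c, which encodes a synaptic adhesion protein, and had heights of 3.61, 3.37 and 4.40 in FANS and 8.40, 6.98 and 8.03 in INTACT, without overlap (log2 difference 1.15, limma adjusted p = 0.000244, and 0.73 with the trend of GC over 100 kb removed). The region 1929414 bp from the start of Grik2, a kainate receptor gene, was among the highest of all, with 22.4, 21.6 and 22.7 in FANS and 23.1, 20.9 and 23.2 in INTACT, where the unnormalised heights overlapped. Its normalised difference was 0.17 (limma adjusted p = 0.0159), which was lost without FANS replicate 2 (adjusted p = 0.0705) or INTACT replicate 1 (0.0640), and which passed in the opposite direction with the trend of window GC removed (-0.20, adjusted p = 0.00875) or that over 100 kb removed (-0.30, adjusted p = 0.000789). The third, 1925809 bp from the start of Gm32455, had 9.93, 7.48 and 11.6 in FANS and 13.5, 12.1 and 16.7 in INTACT (log2 difference 0.73, limma adjusted p = 0.00192), and with the trend over 100 kb removed its difference was 0.31 (adjusted p = 0.114).

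The sequence at the summits was then compared with windows 5 kb to either side that touched no peak. The intergenic windows had a median GC of 46.5%, against 42% in 52110 flanking windows, 47.5% in intronic and 63.5% in promoter regions. A mean of 10.6% of their bases was repeat-masked, against 32.9% in the flanks. They were not rich in CpG, since the ratio of observed to expected CpG had a median of 0.21, close to that of the intronic regions (0.22) and far from that of the promoter regions (0.77).

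The 17 motifs were searched on both strands, and a match is a run of letters, not a bound site. AP-1 (TGANTCA) was found in 18.7% of the intergenic windows, against 6.09% of the flanks and 5.46% of the promoter windows. The E-box CAGATG was found in 29.4% against 15.0% of the flanks, and the E-box CAGCTG in 17.0% against 7.29%. The letters of nuclear factor I (TTGGCA) was found in 19.4% against 9.63%, and the letters of CTCF, searched as a 12-letter pattern, in 2.80% against 0.0710%. Patterns of MEF2 (1.22% against 0.434%) and RFX (0.657% against 0.0518%), 10 and 14 letters long, and the letters of EGR (GCGTGGG, 2.58% against 0.455%) were also more frequent than in the flanks. CRE (TGACGTCA) was found in 0.318% against 0.117%, the octamer (ATGCAAAT) in 2.45% against 1.59% and the T-box (AGGTGTGA) in 1.36% against 0.793%.

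Some motifs were most frequent in the promoter windows, among them CRE (2.64%), EGR (6.24%) and RFX (1.04%). The GC box (GGGCGG), the letters of Sp1, was found in 5.51% of the intergenic windows, 1.696% of the flanks and 49.0% of the promoter windows, the ETS letters (CCGGAA) in 2.61%, 1.46% and 18.4%, and the 10-letter pattern of NRF1 in 0.224%, 0.0345% and 7.02%. Others were rarer than in the flanks. The homeodomain letters (TAATTA) were found in 3.92% of the intergenic windows against 6.92% of the flanks, the NF-Y box (CCAAT) in 22.6% against 29.3%, and NBRE (AAAGGTCA), the letters of the Nr4a receptors, in 0.271% against 1.14%. Matches of CCAAT and of TTGGCA can overlap. Within windows of 40 to 50% GC the order was kept for AP-1 (20.3% against 6.33%), CAGATG (31.5% against 16.5%), CTCF (2.36% against 0.0696%) and NBRE (0.247% against 1.12%), whereas NRF1 no longer exceeded the flanks (0.0412% against 0.0451%). There the gap to the flanks narrowed for the homeodomain letters (4.14% against 4.58%), ETS (1.98% against 1.71%) and the GC box (2.44% against 1.46%). The flanks held more repeat-masked bases (32.9% against 10.6%), which was not matched in any of these comparisons. AP-1 and an E-box occurred together in 7.66% of the intergenic windows and 1.35% of the flanks.

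**Figure D3:**
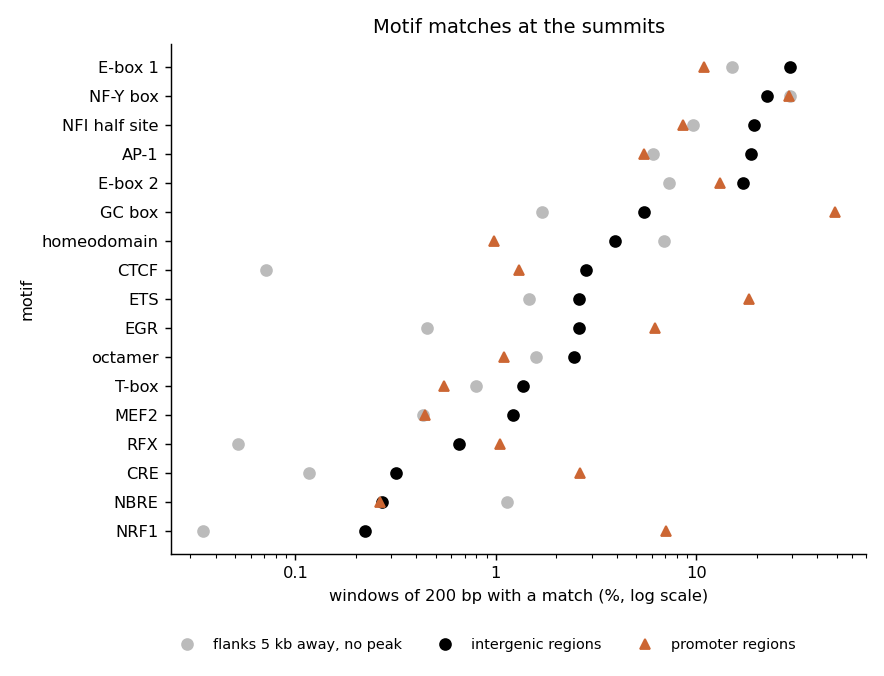
Percent of 200 bp windows with at least 1 match (horizontal axis, log scale) for 17 motifs, in the intergenic regions (black circles), flanks without a peak (grey circles) and promoter regions (orange triangles). E-box 1 and E-box 2 are CAGATG and CAGCTG. AP-1 was matched in 18.7% of the intergenic windows against 6.09% of the flanks, and the GC box in 49.0% of the promoter windows.

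Motifs also varied with height and technique. From the lowest to the highest of 5 equal groups of the intergenic regions by normalised height, AP-1 was found in 15.6, 16.9, 19.1, 18.6 and 23.1% of windows and CAGATG in 26.7, 28.5, 27.5, 30.4 and 33.6%, while CTCF was most frequent in the middle group (3.57%). Within a library, windows with AP-1 stood above those without by 0.11, 0.10 and 0.10 (log2) in FANS and by 0.13, 0.11 and 0.13 in INTACT. The lead was larger in INTACT by 0.02 (exact permutation p = 0.1). For the E-box CAGATG the lead was 0.07, 0.08 and 0.11 in FANS and 0.08, 0.06 and 0.07 in INTACT, which overlapped (exact permutation p = 0.4). Windows with CTCF stood above those without by 0.06, 0.02 and 0.03 in FANS and below them by 0.16, 0.13 and 0.07 in INTACT (exact permutation p = 0.1). CTCF was found in 1.96% of the regions higher in INTACT and 4.78% of those lower, and the GC box in 2.26% and 9.20%, while AP-1 was found in 19.7% and 17.3%. The windows of those higher had a median GC of 41.5% and of those lower 51.5%. Neither these shares nor the leads within a library were matched for GC, whose part in them was not tested.

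Among genes that neuronal activity induces within minutes, 15 of 20 on the list used here (75%) had the nearest start to at least 1 intergenic region, against 32.0% of 24963 autosomal genes, and 57 regions were assigned to them. Their median rank was at the 71.4th percentile, against the 67.2th over all the regions. Of the 57, 7 were higher in INTACT and 6 lower, near the shares over all regions tested (10.9% and 10.1%). Over the intergenic regions these shares were 19.4% and 8.98%. AP-1 was found in 14 of the 57. The median difference was -0.00093 (log2), against 0.06 over all intergenic regions.

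Arc, whose promoter drives the Cre of these mice and whose protein acts at synapses, had 8 regions within 14696 bp of its start. The nearest upstream one (4396 bp away) was low, with heights of 3.34, 3.398 and 3.00 in FANS and 2.97, 3.18 and 3.28 in INTACT, and so was the nearest downstream one (4569 bp away), with 3.61, 3.596 and 3.79 in FANS and 3.399, 3.00 and 3.77 in INTACT. Both overlapped between techniques, and their differences did not pass the test. The region 6243 bp upstream was the highest of the 8, with 11.4, 11.5 and 11.9 in FANS and 13.1, 11.0 and 12.2 in INTACT (log2 difference 0.24, limma adjusted p = 0.0936). Only the region 6436 bp downstream passed, at 3.82, 4.39 and 4.07 in FANS and 6.36, 7.51 and 6.68 in INTACT (log2 difference 0.84, limma adjusted p = 0.00231). These 2 regions of Arc were singled out after their values were seen.

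Fos, a subunit of AP-1, had 6 regions, of which none passed the test. The nearest, 5362 bp upstream, had 13.2, 13.3 and 13.2 in FANS and 9.99, 10.8 and 10.5 in INTACT. All INTACT heights were lower there, yet after normalisation the techniques overlapped (log2 difference -0.16, limma adjusted p = 0.328). Fosb, another Fos subunit, had 3 regions, and all 3 were lower in INTACT, against 10.1% of all regions tested and 8.98% of the intergenic regions. The one 9404 bp upstream had 19.8, 20.4 and 21.0 in FANS and 10.5, 12.6 and 17.0 in INTACT (log2 difference -0.45, limma adjusted p = 0.0102), in a window of 70.5% GC. Its call was lost with the trend of window GC removed (limma adjusted p = 0.0942) or that over 100 kb removed (0.286). The one 16461 bp upstream differed by -0.75 and the one 8316 bp downstream by -0.67, of which the latter lost its call (adjusted p from 0.0533 to 0.109) in 5 of 6 fits that left out 1 library: FANS replicate 2 or 3, or any INTACT replicate. It also lost it with the trend over 100 kb removed (limma adjusted p = 0.161). The region at 16461 bp is named because all regions of Fosb were lower, which was seen in its values.

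Bdnf, which encodes a growth factor of neurons, had 7 regions, of which 4 were higher in INTACT, against 10.9% of all regions tested and 19.4% of the intergenic regions. At 193641 bp upstream, in a window of 30% GC, the height was 3.16, 4.87 and 4.60 in FANS and 10.5, 8.32 and 12.1 in INTACT (log2 difference 1.43, limma adjusted p = 0.000142). At 45845 bp downstream, in a window of 33% GC, it was 10.16, 13.5 and 12.6 in FANS and 15.0, 13.9 and 15.3 in INTACT (log2 difference 0.48, limma adjusted p = 0.00374), but the difference was -0.0033 with the trend of window GC removed and 0.29 (adjusted p = 0.0549) with that over 100 kb removed. The other 2, at 4635 and 56940 bp downstream, differed by 0.83 and 0.39. Their adjusted p values over the fits that left out 1 library reached 0.0527, without FANS replicate 1, and 0.172, the latter losing its call in every such fit but that without INTACT replicate 3. With the trend of window GC removed, both lost their call (limma adjusted p = 0.126 and 0.272). The regions at 193641 and 56940 bp were singled out after their values were seen.

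Egr2 and Nr4a2, transcription factors induced by activity, each had 1 region higher in INTACT. The one 42813 bp upstream of Egr2 had 13.6, 12.8 and 12.8 in FANS and 14.8, 15.2 and 14.6 in INTACT (log2 difference 0.38, limma adjusted p = 0.0118). The one 41940 bp downstream of Nr4a2 had 12.0, 12.7 and 13.6 in FANS and 17.1, 16.9 and 18.5 in INTACT (log2 difference 0.64, limma adjusted p = 0.000122). Both had a window GC of 44.5%, and neither set of heights overlapped between techniques. With the trend of window GC removed the region of Egr2 missed the threshold (limma adjusted p = 0.0570). Npas4, an activity-dependent transcription factor of neurons, had a high region 11750 bp upstream, with 16.1, 16.5 and 15.4 in FANS and 13.6, 14.2 and 14.3 in INTACT, whose normalised difference was 0.01 (limma adjusted p = 0.960). Single regions near Npas4 (4042 bp), Nr4a1 (12212 bp) and Btg2 (13557 bp) were lower in INTACT, by -0.52, -0.56 and -0.33. The first lost its call in 5 of the 6 fits that left out 1 library (all but that without INTACT replicate 3, highest adjusted p = 0.145), the second in 5 (all but that without INTACT replicate 1, highest 0.132), and the third only without FANS replicate 1 (0.0555). With either GC trend removed, none of the 3 passed (limma adjusted p from 0.0928 to 0.913).

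The other regions among the 2 nearest to each early gene did not pass the test. Near Jun, the partner of Fos in AP-1, the differences were 0.22 and 0.15 (log2), and both windows hold an AP-1 match. Near the transcription factor genes Egr1 and Egr4 they were 0.04 and 0.02, and 0.02 and -0.27. For Nr4a3, a nuclear receptor, they were 0.36 (limma adjusted p = 0.0701) and -0.05. The 2 regions of Homer1, a scaffold protein of synapses, were among the highest of the early genes, at the 93.8th and 95.96th percentiles, with differences of 0.06 and -0.10. Per1, a clock gene, had 1 region with a difference of 0.24 (limma adjusted p = 0.140). The remaining differences were -0.03 for the second region of Fos, 0.21 for the nearest of Egr2, 0.09 for the nearest of Nr4a2, -0.02 for the nearest of Btg2 and -0.00093 for the second of Nr4a1.

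**Figure D4:**
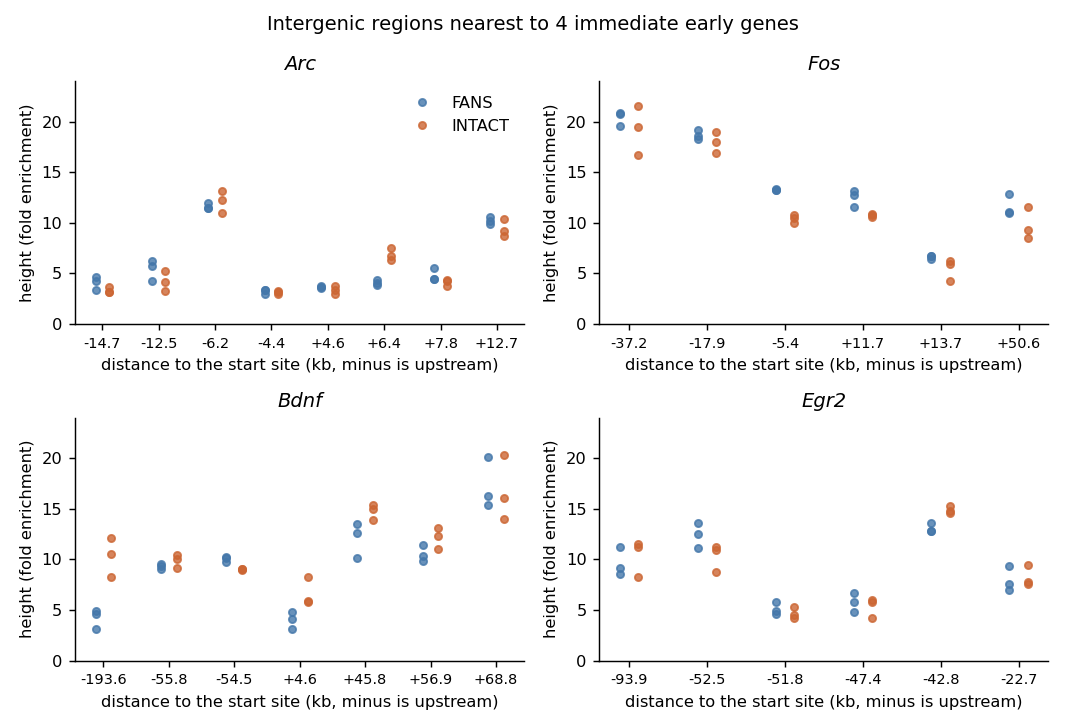
Unnormalised height (fold enrichment, vertical axis) of the intergenic regions nearest to Arc, Fos, Bdnf and Egr2 in the 3 FANS (blue) and 3 INTACT (orange) libraries, 1 point per library, ordered by distance from the start site (horizontal axis, kb, minus is upstream, spacing not to scale). The Bdnf region 193641 bp upstream showed no overlap between techniques, with heights of 3.16 to 4.87 in FANS and 8.32 to 12.1 in INTACT.

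Genes that mark cell types of the cortex were also among the nearest genes. The counts that follow stand beside 32.0% of all autosomal genes with a region, 10.9% higher and 10.1% lower among all regions tested, and 19.4% higher and 8.98% lower among the intergenic regions. Of 20 genes of excitatory neurons 17 had at least 1 region (62 regions, 6 higher and 6 lower in INTACT), among them Mef2c with 12 and Neurod6, Bcl11a and Bcl11b with 7 each. Neurod2, a transcription factor of these neurons, had 3 regions with differences from -1.12 to -0.28, of which 2 were lower in INTACT, whereas Rorb, another of their factors, had 5 with differences from 0.26 to 1.04, of which 3 were higher. The surrounding 100 kb had 50.7 to 53.0% GC at Neurod2 and 37.0 to 38.2% at Rorb, and the part of GC in this contrast was not tested. Both genes were singled out after their values were seen. Of 15 genes of inhibitory neurons 7 had a region (26 regions, 9 higher and 1 lower), with 9 regions at Npy, a neuropeptide. Among 12 astrocyte genes 9 had a region (20 regions, 4 higher, 2 lower), among 12 oligodendrocyte genes 7 (15 regions, 1 higher, 2 lower) and among 11 genes of vascular cells 6 (30 regions, 5 higher, 0 lower, 16 of them at the endothelial cadherin Cdh5). A nearest start does not say in which cells a region was open.

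The nuclear RNA of 31 further libraries in 3 batches, with normalised counts per gene, was used to describe the nearest genes. All 20 excitatory genes and all 20 early genes had a mean of at least 5 normalised counts in every batch, and of the other lists 8 to 13 of the 15 inhibitory, 11 of the 12 astrocyte, 11 to 12 of the 12 oligodendrocyte, 3 to 5 of the 10 microglial and 3 to 4 of the 11 vascular genes did. In such bulk samples fewer cells of a type and less RNA per cell cannot be told apart. Of 7269 nearest genes found in the tables, 66.5% had at least 5 counts in batch 1, 65.6% in batch 2 and 63.9% in batch 3, against 62.8, 61.8 and 59.98% of all 23132 autosomal genes found. The share was 59.2% for genes nearest to regions higher in INTACT and 70.9% for those nearest to regions lower in INTACT in batch 1, and the order was the same in batches 2 (58.4 and 69.7%) and 3 (56.9 and 67.8%).

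The regions were unevenly spread over their nearest genes. Of 7987 such genes 3278 had a single region, while 586 had 10 or more and held 31.6% of all the regions. Celf4, an RNA-binding protein of neurons, had the most, 47 regions over 1605 kb of chromosome 18, of which 45 lay upstream and 9 were higher and 0 lower in INTACT. D3Ertd751e and Gm47415 had 46 each, D030045P18Rik 39, Fbxo33, Gm10440 and Lrrc4c 38 each, and Pik3c3, a lipid kinase, 35. In these 8 groups 6 to 18 regions were higher in INTACT and 0 or 1 lower, with median differences from 0.16 to 0.37, and their median window GC was 38 to 44%. Over all intergenic regions 19.4% were higher and 8.98% lower, and over all regions tested 10.9% and 10.1%. The 9 of 47 at Celf4, the 10 of 46 at Gm47415 and the 6 of 35 at Pik3c3 were thus near the intergenic share higher. The RNA of these nearest genes varied widely, since D030045P18Rik had a mean of 0.676 normalised counts in batch 1 while Celf4 had 2158 and Lrrc4c 1795.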

How the data were processed

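ATAC-seq peaks of 3 FANS and 3 INTACT libraries were analysed. According to the methods, the authors used Bowtie2 for alignment to mm10, dropped pairs that mapped poorly and duplicates (Picard), and called peaks with MACS2. Regions with near-identical copies can thus lose reads. Each library has its own peak list. Each peak in the lists the authors deposited carries a score, the fold enrichment at the summit (a ratio), a -log10 p-value and a -log10 q-value. Read depth is unknown, no counting interval could be given for heights, and the count test of the study could not be run.

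Heights were compared with limma 3.58.1 in R 4.3.3 (lmFit, eBayes with trend), tested on simulated data. Single values per library were compared by exact two-sided permutation. Classes and start sites came from 45756 curated RefSeq transcripts (31601 start positions). Windows were aligned with blastn 2.17.0. The RNA-seq signal is the deposited count per gene divided by DESeq size factors, made by the authors with STAR and HTSeq per batch, and 23132 of 24963 autosomal genes were matched by symbol or synonym.

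Regions named in the text were the 5 highest by median rank, in each direction the 5 called with the largest difference and no overlap, the 2 nearest to each early gene, the 3 farthest from a start, and those at the limits of distance and width; genes named were the 8 with the most regions and those of the lists. Exceptions are stated. Regions, lists and tests were chosen with earlier results of these data known. Regions near the microglial genes are not reported here, for a reason unrelated to their values.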

Additional observations from a re-analysis of the deposited data

How the results depend on the processing

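The median difference, the gaps to promoter and intronic regions, the lead over intronic regions and the difference in width kept their direction under the alternatives run for each. Centring and removal of GC trends were run for the median difference and single regions, not for the class gaps, and no alternative was run for the gaps by GC, distance or motif. The threshold for the lead over intronic regions was missed in each fit without 1 library (0.17 to 0.20 log2), because 5 libraries cannot give a permutation p under 0.0625. With the -log10 q-value as height, 11377 regions were higher and 4662 lower in INTACT. The median difference was then 0.26 and the change of the gap 0.86 to promoter and 0.28 to intronic regions. Where peaks had to cover at least 50% of a merged region, 3163 were higher and 1512 lower, of 21105 regions, and peaks were wider in INTACT by 23.3 bp. With the GC trend over 100 kb removed, 3468 were higher. Fits without 1 library gave 4283 to 5142 higher and 1722 to 2767 lower. The median distance was 35790 bp with all RefSeq transcripts and 75300 bp with starts over 10000 bp away, which follow from the rules. At least 50 normalised counts were reached by 49.6% of the nearest genes in batch 1.

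Replicate numbers did not pair the samples (correlations of same-numbered libraries from -0.00168 to 0.0116), and with a replicate block 5585 regions were higher and 2574 lower.

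Of 398 values of 28 named regions under the alternatives, 345 kept direction and call, 46 lost the call and 7 reversed. A further 22 had no value, because the region was not kept under the stricter q-value or the rule on covered length, among them those near Il12rb2, Mir6411, Prss27, Rbfox3 and Ccnq under both. Reversed values were, near 1700019M22Rik, -0.091 with the -log10 q-value, -0.0715 with the window GC trend removed and -0.30 with that over 100 kb removed. Near Grik2 they were -0.20 and -0.30 with these trends removed, near Cr2 0.0156 and near Bdnf (45845 bp) -0.0033 with the window trend removed. The cause was not tested.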
